A study of Mus musculus with 27 samples.

Results

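The nuclear RNA polymerases of mouse splenic B cells are described here through the 28 protein-coding genes whose names begin with Polr1, Polr2 or Polr3 followed by letters only, out of 54532 annotated genes, of which 22046 are protein-coding. By name, 5 of them belong to polymerase I (Pol I), 13 to polymerase II (Pol II) and 10 to polymerase III (Pol III). The rule used names alone and no measured value. Because enzymes share subunits, they were grouped by role: 3 subunits of Pol I alone (Polr1a, Polr1b, Polr1e), 2 shared by Pol I and Pol III (Polr1c, Polr1d), 5 carried by all 3 enzymes although they are named for Pol II (Polr2e, Polr2f, Polr2h, Polr2k, Polr2l), 8 of Pol II alone (Polr2a, Polr2b, Polr2c, Polr2d, Polr2g, Polr2i, Polr2j and the associated protein Polr2m) and 10 of Pol III alone.

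Wild-type C57BL/6 B cells were enriched from spleen by magnetic depletion of other cells and cultured for 3 h. In the first experiment, 4 libraries each were made from unstimulated cells, from cells given lipopolysaccharide (LPS) or IL-4+anti-CD40, which stands in for T cell help, and from cells given either stimulus with 1 μM disulfiram (DSF), a drug for alcohol dependence. All groups without an inhibitor, the unstimulated cells included, received the DMSO vehicle. The second experiment held 7 single libraries: the same 5 conditions, and each stimulus with 1 μM ibrutinib, an inhibitor of Bruton's tyrosine kinase. There was no group with DSF and no stimulus. The study calls its RNA-seq samples biologically independent, while the labels do not say whether they came from separate mice, so the p-values measure the spread between these samples.

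Pol I transcribes the ribosomal RNA precursor in the nucleolus, Pol II transcribes messenger RNAs, and Pol III makes transfer RNAs, 5S ribosomal RNA and other short RNAs. Each enzyme is built on a pair of large subunits that form the catalytic cleft. Resting B cells have little cytoplasm and make few ribosomes, and they grow and raise the output of all 3 enzymes after activation. The poly(A)-selected libraries measured the messenger RNAs of the subunits, not the enzymes or their products.

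The promoters of 3 genes are printed because the results turn on them: Polr3g and Polr3gl, which encode alternative forms of 1 Pol III subunit, and Polr2a, the largest Pol II subunit. Each window is a RefSeq sequence on GRCm38.p6 that runs from 250 bases before the annotated start to 50 after it, printed on the gene's strand, with matches to the 4 motifs searched in capitals. The Polr3g window is chr13:81710964-81711263 on the minus strand, the Polr3gl window is chr3:96594132-96594431 on the minus strand, and the Polr2a window is chr11:69758584-69758883 on the minus strand.
Polr3g: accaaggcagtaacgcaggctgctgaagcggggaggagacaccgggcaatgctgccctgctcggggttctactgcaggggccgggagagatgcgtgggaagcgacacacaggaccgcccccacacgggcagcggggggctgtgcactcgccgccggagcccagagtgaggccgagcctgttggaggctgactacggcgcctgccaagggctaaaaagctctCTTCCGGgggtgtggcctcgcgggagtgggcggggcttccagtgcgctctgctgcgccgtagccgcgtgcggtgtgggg
Polr3gl: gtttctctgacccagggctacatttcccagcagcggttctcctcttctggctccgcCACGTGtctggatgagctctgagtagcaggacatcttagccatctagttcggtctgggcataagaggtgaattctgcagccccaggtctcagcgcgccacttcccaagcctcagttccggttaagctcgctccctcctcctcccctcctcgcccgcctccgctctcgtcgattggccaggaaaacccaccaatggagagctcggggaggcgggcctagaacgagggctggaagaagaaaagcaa
Polr2a: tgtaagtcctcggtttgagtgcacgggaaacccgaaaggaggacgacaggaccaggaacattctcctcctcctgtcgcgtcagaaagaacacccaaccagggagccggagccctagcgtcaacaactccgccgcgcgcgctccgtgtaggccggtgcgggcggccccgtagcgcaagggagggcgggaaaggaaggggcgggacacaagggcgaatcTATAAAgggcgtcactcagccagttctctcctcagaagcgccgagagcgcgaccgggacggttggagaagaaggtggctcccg

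The Polr3g window held an ETS-type match on its reverse strand, CTTCCGG, whose first base lay 29 bases before the start. The Polr3gl window held the E-box CACGTG 194 bases before the start, and the Polr2a window held TATAAA 33 bases before it. Windows were available for 22 of the 28 genes. Of their 24 windows, 4 (16.7%) held CACGTG against 7.15% of all 32851 windows, 7 (29.2%) held CCGGAAG on either strand against 8.86%, 2 (8.33%) held TATAAA on either strand against 13.6%, and none held the NRF1 palindrome, which 0.971% of all windows held. The genes with CACGTG were Polr2h, Polr3c, Polr3e and Polr3gl. Those with CCGGAAG were Polr1c, Polr1e, Polr2c, Polr2f, Polr2j, Polr3b and Polr3g. These are matches of letters, and no binding was measured.

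Total counts ran from 17804851 to 23632992 over the 20 libraries of the first experiment and from 16049295 to 24619776 over the 7 of the second. Every member passed the filter on low counts in every comparison, and the lowest count of any member in any library was 50 (61 in the second experiment). The defining B cell genes were high throughout, with Cd79a at 285 to 1271 FPKM (fragments per kilobase of transcript, scaled by library depth), whereas the defining T cell gene Cd3e was at 0 to 0.50 FPKM. The summed level of 8 T cell markers was 14.4 to 15.9 FPKM in unstimulated cells and 9.55 to 14.3 in the other groups. Lck led it at 5.68 to 13.5 FPKM, and Trac was at 0.609 to 5.87 and Cd3d at 0.0287 to 1.20. The summed level of 7 myeloid markers was 380 to 482 FPKM in unstimulated cells, 205 to 219 with LPS, 162 to 165 with LPS and DSF, 126 to 143 under IL-4+anti-CD40 and 147 to 193 under IL-4+anti-CD40 and DSF, led by Lyz2 and Mpeg1. That of 8 B cell markers ran over the same groups from 2433 to 3309, 1644 to 1674, 1180 to 1254, 1516 to 1750 and 1289 to 1379 FPKM, and that of 5 plasma cell markers from 179 to 224, 399 to 404, 477 to 511, 335 to 342 and 374 to 385 FPKM, led by Irf4. The part of these shifts in the results was not tested. In bulk RNA, fewer cells of a type and less RNA per cell cannot be told apart.

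The 4 unstimulated libraries did not form 1 group. In FPKM, libraries 1 and 2 did not overlap with libraries 3 and 4 for 23 of the 28 members, 18 of them higher in libraries 1 and 2 (background 39.2% of 14477 genes) and 5 lower (36.3%). Polr1b averaged 15.7 FPKM in libraries 1 and 2 and 7.44 in libraries 3 and 4, and Polr3gl averaged 7.03 and 14.8. The summed levels of all 7 marker lists separated by this split. That of 6 neutrophil markers was 78.6 and 78.9 FPKM in libraries 1 and 2 and 24.3 and 29.4 in libraries 3 and 4, that of 6 erythroid markers 3.73 and 2.97 against 15.6 and 17.7, and that of 5 NK cell markers 10.7 and 10.96 against 3.80 and 3.88. B cell markers summed to 2478 and 2433 FPKM against 3309 and 3289, myeloid markers to 389 and 380 against 470 and 482, plasma cell markers to 219 and 224 against 179 and 198, and T cell markers to 14.6 and 14.4 against 15.9 and 15.9. The defining NK gene Ncr1 stayed at or under 0.275 FPKM in all libraries. Of the same list, Klrd1 reached 9.45 FPKM, Prf1 1.22, Gzma 0.765 and Klrb1c 0.286. The part of these marker differences in the results was not tested.

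Stimulation raised most subunit messages. With LPS, 20 of the 28 members were higher than in unstimulated cells (background 29.6% of 14477 genes tested) and 3 were lower (33.3%). Under IL-4+anti-CD40, 20 were higher (30.4% of 14433 genes) and 2 were lower (32.1%). The median log2 fold change of the members was 0.47 with LPS and 0.56 under IL-4+anti-CD40, against -0.05 and -0.04 over all genes tested. Both comparisons used the same unstimulated libraries. In FPKM, 20 members lay above all unstimulated libraries with LPS (28.8% of genes) and 3 below (31.9%), and 20 lay above (28.7%) and 2 below (31.2%) under IL-4+anti-CD40. Against unstimulated libraries 1 and 2 alone, 21 were higher and 5 lower with LPS, and 20 were higher and 3 lower under IL-4+anti-CD40. Scaled by total counts alone, which moved the median of all genes to -0.27 with LPS, 16 were higher and 6 lower with LPS.

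DSF lowered most of them. With LPS, 22 members were lower when DSF was added (36% of 14154 genes) and 2 were higher (35.1%). Under IL-4+anti-CD40, 22 were lower (31.6% of 14275 genes) and 1 was higher (30.1%). The members' median was -0.36 with LPS and -0.34 under IL-4+anti-CD40, against 0.00 and -0.02 over all genes. The DSF comparisons share no library, and 20 members were lower in both, of the 22 lower in each (background 27.4% of 13736 genes tested in both). All DSF-treated libraries lay below all libraries with the stimulus alone for 21 members with LPS (33.9% of genes) and for 19 under IL-4+anti-CD40 (28.1%), and above them for 1 (30.3%) and for none (28.7%). With only libraries 3 and 4 of both groups, 19 members were lower with LPS, without Polr2d, Polr3c and Polr3e, and 12 under IL-4+anti-CD40, without Polr1c, Polr2c, Polr2e, Polr2g, Polr2h, Polr2i, Polr2j, Polr3b, Polr3gl and Polr3k. These fits used fewer libraries, and the background shares above are those of the fits with all libraries of both groups. The part of sample number in the lower counts was not tested.

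The share of all counts that fell on the 28 genes moved in the same way. It was 0.186 to 0.220% in unstimulated cells, 0.246 to 0.250% with LPS and 0.266 to 0.299% under IL-4+anti-CD40. With DSF it was 0.181 to 0.191% under LPS and 0.197 to 0.211% under IL-4+anti-CD40. Under IL-4+anti-CD40 alone, the share was 0.299 and 0.292% in libraries 1 and 2 and 0.272 and 0.266% in libraries 3 and 4.

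**Figure D1:**
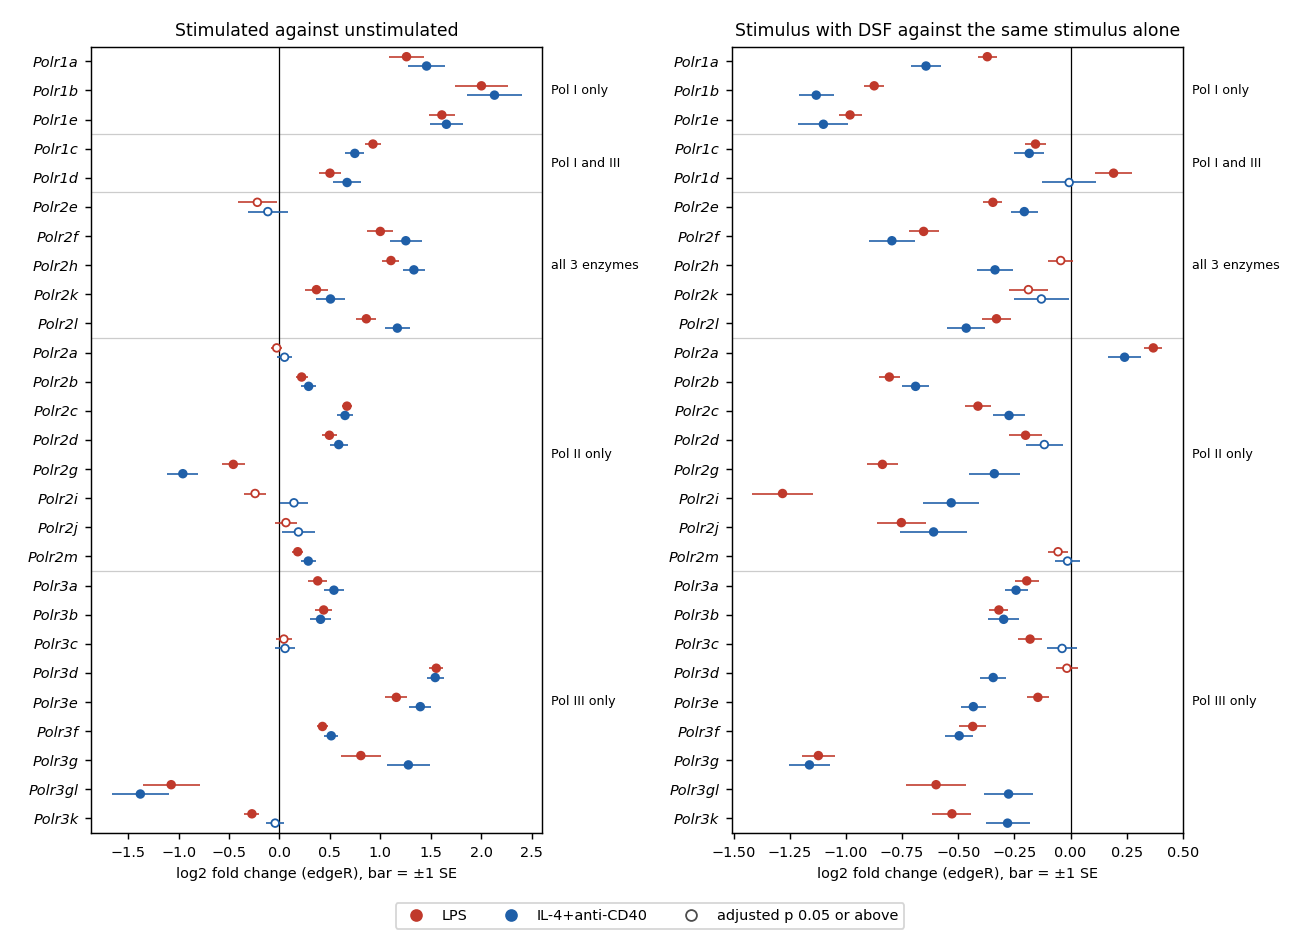
Log2 fold change (x axis) of 27 subunit genes, grouped by role, for each stimulus against unstimulated cells (left) and for DSF added to each stimulus (right), with bars of 1 standard error and open points where the adjusted p was 0.05 or above. The 3 subunits of Pol I alone lie furthest right as a class in the left panel, from 1.26 to 2.13, and Polr2a is the member to the right of 0 with filled points under both stimuli in the right panel.

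The 3 subunits of Pol I alone were higher with each stimulus (background 29.6% with LPS and 30.4% under IL-4+anti-CD40). They were lower with DSF under each (36% and 31.6%). Among the classes of members they had the highest median rise, 1.61 on the log2 scale with LPS and 1.66 under IL-4+anti-CD40. The Pol I and Pol III subunits with other names here (Twistnb, Cd3eap, Znrd1, Crcp) are outside the name rule. Their list had median rises of 0.64 and 0.66. With DSF, Cd3eap changed by -1.03 and -1.17, but Znrd1 by 0.53 and 0.68. Polr1a, the largest subunit, was at 10.4, 10.3, 7.01 and 5.73 FPKM in the unstimulated libraries, 20.8, 20.4, 18.3 and 19.7 with LPS and 23.4, 24.6, 21.2 and 21.2 under IL-4+anti-CD40. With DSF it was at 15.1, 15.2, 15.2 and 15.0 FPKM under LPS and 15.0, 14.9, 13.2 and 15.6 under IL-4+anti-CD40. Every DSF library of the first experiment therefore lay between the unstimulated libraries and the libraries with the stimulus alone. The log2 fold change of Polr1a was 1.26 ± 0.18 (SE) with LPS (adjusted p = 0.000298) and 1.46 ± 0.18 under IL-4+anti-CD40 (adjusted p = 0.000131). With LPS it was 0.96 against unstimulated libraries 1 and 2 and 1.66 against libraries 3 and 4. DSF changed Polr1a by -0.37 ± 0.04 (adjusted p = 2.06e-08) and -0.64 ± 0.06 (adjusted p = 8.11e-06).

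Polr1b, the second-largest Pol I subunit, had the largest rise of all 28 members with each stimulus. It was at 15.6, 15.9, 7.21 and 7.67 FPKM in unstimulated cells, 48.4, 46.4, 43.7 and 44.9 with LPS and 54.3, 55.1, 47.6 and 42.6 under IL-4+anti-CD40. Under DSF it was at 25.8, 25.7, 24.3 and 23.0 FPKM with LPS and 23.9, 23.0, 21.4 and 24.0 under IL-4+anti-CD40. In the first experiment, no library of one of these 3 levels (unstimulated, stimulated with DSF, stimulated) overlapped with another. The log2 fold change was 2.00 ± 0.26 with LPS (adjusted p = 0.000197) and 2.13 ± 0.27 under IL-4+anti-CD40 (adjusted p = 0.000151). Its rise depended on the unstimulated libraries used, at 1.57 with LPS against libraries 1 and 2 and 2.65 against libraries 3 and 4. DSF changed it by -0.87 ± 0.05 (adjusted p = 6.62e-15) and -1.13 ± 0.08 (adjusted p = 1.23e-06).

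Polr1e, which pairs with Cd3eap in a Pol I heterodimer, had the largest DSF effect of the Pol I class with LPS, and Polr1b under IL-4+anti-CD40. It was at 8.47, 7.49, 6.01 and 5.21 FPKM in unstimulated cells, 21.1, 21.2, 20.2 and 19.6 with LPS and 24.1, 24.1, 18.2 and 17.9 under IL-4+anti-CD40. DSF brought it to 9.39, 10.7, 10.4 and 10.6 FPKM with LPS and to 10.7, 8.55, 10.4 and 10.1 under IL-4+anti-CD40, all above the unstimulated libraries and below the stimulated ones. The DSF change was -0.98 ± 0.05 with LPS (adjusted p = 8.35e-15) and -1.10 ± 0.11 under IL-4+anti-CD40 (adjusted p = 8.37e-06).

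In the first experiment, the subunits shared by Pol I and Pol III, Polr1c and Polr1d, rose with each stimulus and changed little with DSF. Polr1c was at 20.3, 20.2, 16.9 and 18.8 FPKM in unstimulated cells, 34.5, 33.6, 38.3 and 37.3 with LPS and 30.7, 32.6, 31.4 and 32.4 with LPS and DSF. Under IL-4+anti-CD40 it was at 34.5, 33.7, 29.5 and 28.4 FPKM, and with DSF at 27.8, 28.8, 28.3 and 27.7. The DSF libraries lay below the others with LPS but overlapped with them under IL-4+anti-CD40. DSF changed Polr1c by -0.16 ± 0.05 (adjusted p = 0.00584) and -0.18 ± 0.07 (adjusted p = 0.03), and the latter call was lost without any 1 of IL-4+anti-CD40 libraries 1 and 2 or of its DSF libraries 1, 3 and 4.

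Polr1d was at 26.2, 25.1, 27.1 and 29.2 FPKM in unstimulated cells and at 32.6, 39.6, 45.0 and 33.8 with LPS. With LPS and DSF it was at 35.8, 49.6, 44.0 and 40.8 FPKM, overlapping with LPS alone. Its log2 fold change with DSF under LPS was 0.19 ± 0.08 (adjusted p = 0.0386), a call lost in DESeq2 and without any 1 of LPS libraries 1, 2 and 4 or LPS and DSF libraries 2 and 3. Under IL-4+anti-CD40 it was at 53.6, 42.4, 32.5 and 40.4 FPKM, and with DSF at 40.1, 45.2, 44.5 and 40.6, a log2 difference of -0.01 ± 0.12 (adjusted p = 0.968).

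Of the 5 subunits common to all 3 enzymes, 4 were higher with each stimulus (background 29.6% with LPS and 30.4% under IL-4+anti-CD40), Polr2e being the exception. Polr2h had the largest rise, from 13.6, 11.7, 10.7 and 10.7 FPKM to 25.9, 24.0, 25.2 and 24.4 with LPS and 32.5, 30.9, 25.9 and 26.4 under IL-4+anti-CD40, log2 fold changes of 1.11 ± 0.08 (adjusted p = 9.74e-06) and 1.33 ± 0.11 (adjusted p = 1.71e-05). Polr2l rose by 0.86 and 1.17, Polr2f by 1.00 and 1.25, and Polr2k by 0.37 and 0.51 on the same scale. The call for Polr2k with LPS was lost without LPS library 1.

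Polr2f had the largest DSF effect of the shared subunits. It was at 16.05, 15.8, 19.3 and 17.4 FPKM with LPS and at 10.3, 11.2, 10.2 and 11.2 with LPS and DSF. It was at 23.9, 22.3, 17.8 and 17.2 FPKM under IL-4+anti-CD40 and at 11.4, 11.5, 12.7 and 11.8 with DSF. The groups did not overlap under either stimulus, and the DSF change was -0.65 ± 0.07 (adjusted p = 3.67e-09) and -0.80 ± 0.10 (adjusted p = 4.55e-05). In the unstimulated libraries Polr2f was at 10.5, 9.24, 6.71 and 8.17 FPKM. Polr2e was at 55.3, 54.1, 30.2 and 31.0 FPKM in unstimulated cells, 36.7, 36.1, 35.9 and 36.1 with LPS and 41.4, 39.8, 36.5 and 37.0 under IL-4+anti-CD40, and was not called with either stimulus. Its log2 fold change with LPS was -0.57 against unstimulated libraries 1 and 2 and 0.27 against libraries 3 and 4. DSF libraries held Polr2e at 27.1, 29.2, 28.7 and 27.5 FPKM under LPS and 33.9, 32.3, 36.9 and 33.0 under IL-4+anti-CD40, and its log2 level fell by 0.35 with LPS (adjusted p = 7.95e-08) and by 0.21 under IL-4+anti-CD40 (adjusted p = 0.0112), a call lost when all 20 libraries were fitted together.

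Within Pol II, the catalytic pair moved in opposite directions with DSF. Polr2a, whose C-terminal domain couples transcription to messenger RNA processing, was among the highest members in unstimulated cells, at 63.9, 65.7, 64.6 and 59.3 FPKM, and overlapped with Polr2m there. It was at 62.4, 59.1, 60.7 and 64.0 FPKM with LPS and 59.7, 63.7, 68.8 and 66.3 under IL-4+anti-CD40, log2 differences of -0.03 ± 0.06 and 0.05 ± 0.07 from unstimulated cells (adjusted p = 0.696 and 0.558). With DSF it was at 81.7, 78.9, 77.7 and 75.4 FPKM under LPS and at 77.7, 84.2, 67.0 and 81.0 under IL-4+anti-CD40. The groups were apart with LPS and overlapped by 1 DSF library under IL-4+anti-CD40. DSF changed Polr2a by 0.37 ± 0.04 (adjusted p = 1.47e-08) and 0.24 ± 0.07 (adjusted p = 0.0154), and the latter call was lost without IL-4+anti-CD40 and DSF library 2 and with scaling by total counts.

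Polr2b, the second-largest Pol II subunit, was at 25.4, 26.2, 24.5 and 22.1 FPKM in unstimulated cells, 27.3, 27.6, 29.3 and 28.95 with LPS and 29.6, 32.3, 28.3 and 28.02 under IL-4+anti-CD40. DSF brought it to 15.99, 17.5, 14.9 and 15.4 FPKM with LPS and 20.1, 18.4, 17.7 and 18.1 under IL-4+anti-CD40. Every DSF library thus lay below the unstimulated libraries as well as the stimulated ones. The DSF change was -0.81 ± 0.05 (adjusted p = 9.13e-14) and -0.69 ± 0.06 (adjusted p = 3.14e-06), and against unstimulated cells Polr2b was lower with LPS and DSF (-0.61 ± 0.07, adjusted p = 6.68e-05) and under IL-4+anti-CD40 and DSF (-0.39 ± 0.07, adjusted p = 0.000924).

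Polr2g, a subunit of the Pol II stalk with Polr2d, was called lower with each stimulus, and DSF lowered it again. It was at 42.4, 39.5, 49.3 and 55.7 FPKM in unstimulated cells, 33.8, 32.9, 34.7 and 33.6 with LPS and 27.7, 26.4, 20.1 and 20.8 under IL-4+anti-CD40. With DSF it was at 17.8, 20.5, 17.7 and 18.6 FPKM under LPS and 19.1, 18.2, 21.0 and 17.7 under IL-4+anti-CD40. The DSF libraries lay between 17.7 and 21.0 FPKM under both stimuli, while the groups with LPS alone and IL-4+anti-CD40 alone were apart by 0.56 ± 0.10 (adjusted p = 0.000808). The DSF change was -0.84 ± 0.07 with LPS (adjusted p = 1.01e-10) and -0.34 ± 0.11 under IL-4+anti-CD40 (adjusted p = 0.0228), and the latter call was lost without any 1 of IL-4+anti-CD40 libraries 1 and 2 or its DSF libraries 2 and 4. Polr2d, the other stalk subunit, rose by 0.50 and 0.59 with the stimuli.

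Polr2i, a small subunit involved in proofreading, had the largest DSF effect of the Pol II class with LPS, whereas Polr2b and Polr2j were lowered more under IL-4+anti-CD40. It was at 8.87, 9.08, 7.85 and 9.04 FPKM in unstimulated cells, 6.68, 6.84, 7.70 and 7.999 with LPS and 3.27, 2.53, 2.60 and 3.40 with LPS and DSF. Under IL-4+anti-CD40 it was at 9.54, 11.7, 8.43 and 8.29 FPKM, and with DSF at 5.91, 6.49, 6.84 and 7.33. The DSF libraries lay below the others under both stimuli, with changes of -1.28 ± 0.13 (adjusted p = 5.51e-09) and -0.53 ± 0.13 (adjusted p = 0.00327). Polr2i shares 325 exon bases with Tbcb on the other strand, and the strand setting of the counting is not given in the sources used here. Exon bases were also shared with opposite-strand genes by Polr3b (247), Polr2f (245), Polr1a (185), Polr2j (176), Polr2b (85), Polr2h (82) and Polr3gl (57).

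Polr2j and Polr2c form the dimer that corresponds to Polr1d and Polr1c. Polr2j was at 13.5, 11.4, 12.7 and 10.4 FPKM in unstimulated cells, 11.6, 12.9, 11.2 and 13.9 with LPS and 14.5, 17.2, 11.6 and 10.6 under IL-4+anti-CD40. The DSF libraries were at 6.02, 8.77, 7.25 and 6.99 FPKM under LPS and 7.60, 8.69, 10.2 and 9.22 under IL-4+anti-CD40. Polr2j was not called with either stimulus and was lower with DSF under both, by 0.75 with LPS (adjusted p = 1.36e-06) and by 0.61 under IL-4+anti-CD40 (adjusted p = 0.00427). It was also lower than in unstimulated cells with LPS and DSF (-0.72 ± 0.14, adjusted p = 0.00125). Polr2c rose by 0.67 and 0.65 with the stimuli and decreased by 0.41 and by 0.27 with DSF, with 953 exon bases shared with Dok4 on the other strand. Polr2m, which associates with Pol II, rose by 0.18 and 0.29 and its DSF differences of -0.06 and -0.01 were not called.

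**Figure D2:**
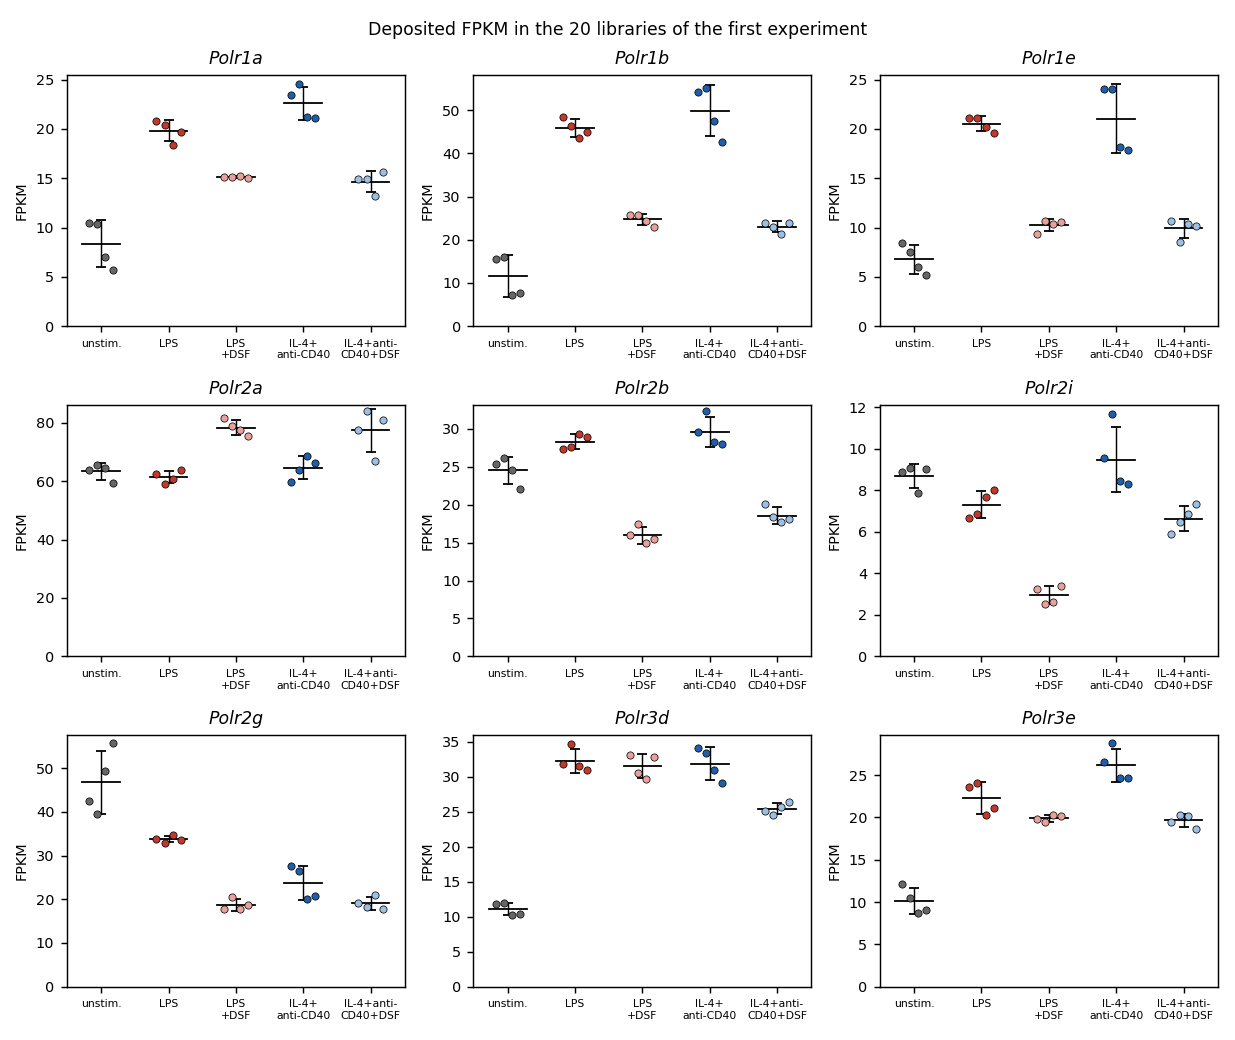
Deposited FPKM (y axes, from 0) of 9 subunit genes in each library of the 5 groups of the first experiment, with the mean (long bar) and SD (capped line) of 4 libraries. The Pol I genes and Polr3e fall between the unstimulated and stimulated levels with DSF, Polr2b, Polr2g and Polr2i fall below the unstimulated libraries, and Polr2a is the gene whose mean is higher with DSF.

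In Pol III, 7 of 10 members rose with each stimulus (background 29.6% with LPS and 30.4% under IL-4+anti-CD40). Lower were 2 with LPS (33.3%), Polr3gl and Polr3k, and 1 under IL-4+anti-CD40 (32.1%), Polr3gl. The largest subunits changed modestly. Polr3a was at 9.66, 9.39, 8.73 and 6.97 FPKM in unstimulated cells, 11.6, 12.0, 10.2 and 10.9 with LPS and 12.2, 13.1, 12.0 and 12.4 under IL-4+anti-CD40. With DSF it was at 10.04, 9.94, 9.27 and 9.33 FPKM under LPS and 10.6, 11.2, 10.4 and 10.4 under IL-4+anti-CD40. The DSF libraries lay just below those with the stimulus alone, with changes of -0.20 ± 0.05 (adjusted p = 0.00237) and -0.24 ± 0.05 (adjusted p = 0.00157).

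Polr3b was at 12.6, 11.8, 14.7 and 14.2 FPKM in unstimulated cells, 17.9, 17.8, 18.1 and 17.9 with LPS and 17.99, 19.6, 16.6 and 15.6 under IL-4+anti-CD40. DSF brought it to 14.4, 13.9, 13.9 and 14.5 FPKM with LPS and 15.1, 13.7, 13.95 and 14.8 under IL-4+anti-CD40, within or close to the unstimulated range. DSF changed Polr3b by -0.32 ± 0.04 (adjusted p = 2.41e-07) and -0.30 ± 0.07 (adjusted p = 0.00277).

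Polr3d and Polr3e form a dimer related to the Pol II factor TFIIF, and both rose with each stimulus. Polr3d was at 11.7, 12.0, 10.3 and 10.4 FPKM in unstimulated cells, 31.9, 34.8, 31.5 and 31.0 with LPS and 33.1, 30.5, 29.6 and 32.9 with LPS and DSF. Under IL-4+anti-CD40 it was at 34.1, 33.4, 31.0 and 29.04 FPKM, and with DSF at 25.1, 24.5, 25.7 and 26.4. In the first experiment, DSF thus left it overlapping with LPS alone (-0.02 ± 0.05, adjusted p = 0.774) and below IL-4+anti-CD40 alone (-0.34 ± 0.06, adjusted p = 0.000354). In the second, with 1 library per condition and no test, its DSF log2 ratio was -0.48 with LPS and -0.57 under IL-4+anti-CD40. The rise with the stimuli was 1.56 ± 0.07 (adjusted p = 5.57e-07) and 1.54 ± 0.08 (adjusted p = 1.85e-06).

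Polr3e was at 12.1, 10.5, 8.69 and 9.06 FPKM in unstimulated cells, 23.7, 24.1, 20.3 and 21.2 with LPS and 19.8, 19.4, 20.3 and 20.2 with LPS and DSF. Under IL-4+anti-CD40 it was at 26.6, 28.8, 24.7 and 24.7 FPKM, and with DSF at 19.5, 20.3, 20.1 and 18.7. The DSF levels were close under the 2 stimuli. DSF changed Polr3e by -0.15 ± 0.05 (adjusted p = 0.0122) and -0.43 ± 0.06 (adjusted p = 5.11e-05). The call with LPS was lost when all 20 libraries were fitted together (adjusted p = 0.098) and with libraries 3 and 4 of both groups only, at -0.03 (adjusted p = 0.696).

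Polr3g and Polr3gl encode alternative forms of a subunit of the Pol III initiation subcomplex, and stimulation moved them apart. Polr3g was at 5.61, 5.69, 3.08 and 3.24 FPKM in unstimulated cells, 7.38, 7.91, 7.96 and 7.22 with LPS and 11.6, 11.7, 9.94 and 8.80 under IL-4+anti-CD40. Polr3gl was at 7.32, 6.75, 14.3 and 15.3 FPKM in unstimulated cells, 4.80, 5.49, 5.13 and 5.21 with LPS and 4.40, 4.26, 3.88 and 4.08 under IL-4+anti-CD40. Neither gene's stimulated libraries overlapped with the unstimulated ones. Polr3g rose by 0.81 ± 0.20 (adjusted p = 0.00699) and 1.28 ± 0.22 (adjusted p = 0.000787), while Polr3gl changed by -1.07 ± 0.28 (adjusted p = 0.0094) and -1.38 ± 0.29 (adjusted p = 0.00254). The sizes depended on the unstimulated libraries used. Against libraries 1 and 2, Polr3g was at 0.46 with LPS and 0.90 under IL-4+anti-CD40 and Polr3gl at -0.42 and -0.75, and against libraries 3 and 4 Polr3g was at 1.30 and 1.75 and Polr3gl at -1.49 and -1.81. The stimuli differed for both, with Polr3g lower with LPS than under IL-4+anti-CD40 by 0.41 (adjusted p = 0.00262) and Polr3gl higher by 0.36 (adjusted p = 0.00828).

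With DSF, Polr3g was at 3.55, 3.61, 3.27 and 3.37 FPKM under LPS and at 4.81, 4.86, 4.57 and 4.78 under IL-4+anti-CD40. The change was the largest of the Pol III class, -1.12 ± 0.07 (adjusted p = 6.03e-13) and -1.16 ± 0.09 (adjusted p = 1.84e-06). In the first experiment, its DSF libraries lay within the spread of the unstimulated ones, and neither DSF group was called against unstimulated cells (adjusted p = 0.166 and 0.609). Both calls changed with the unstimulated libraries used. With LPS and DSF, Polr3g was at -0.74 against libraries 1 and 2 (adjusted p = 1.62e-07) and 0.12 against libraries 3 and 4 (adjusted p = 0.329), and under IL-4+anti-CD40 and DSF it was at -0.26 (adjusted p = 0.0119) and 0.59 (adjusted p = 0.0001). Polr3gl was lowered too, to 2.97, 2.58, 4.19 and 3.74 FPKM under LPS (-0.60 ± 0.14, adjusted p = 0.000346) and to 3.80, 3.15, 3.68 and 3.28 under IL-4+anti-CD40 (-0.28 ± 0.11, adjusted p = 0.0473). The latter call was lost in DESeq2 and without any 1 of the libraries other than IL-4+anti-CD40 and DSF library 1. In the second experiment, with 1 library per condition and no test, Polr3g was at 4.35 FPKM without stimulus. It was at 1.25 FPKM there with LPS and DSF and at 1.28 under IL-4+anti-CD40 and DSF, below the unstimulated library.

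The ratio of Polr3g to Polr3gl in FPKM was 0.211 to 0.843 in the unstimulated libraries, 1.39 to 1.55 with LPS and 2.16 to 2.74 under IL-4+anti-CD40. With DSF it was 0.781 to 1.40 under LPS and 1.24 to 1.54 under IL-4+anti-CD40. In the second experiment the ratio was 0.567 without stimulus, 1.99 with LPS, 2.72 under IL-4+anti-CD40, 0.328 and 0.221 with DSF, and 1.14 and 1.42 with ibrutinib.

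**Figure D3:**
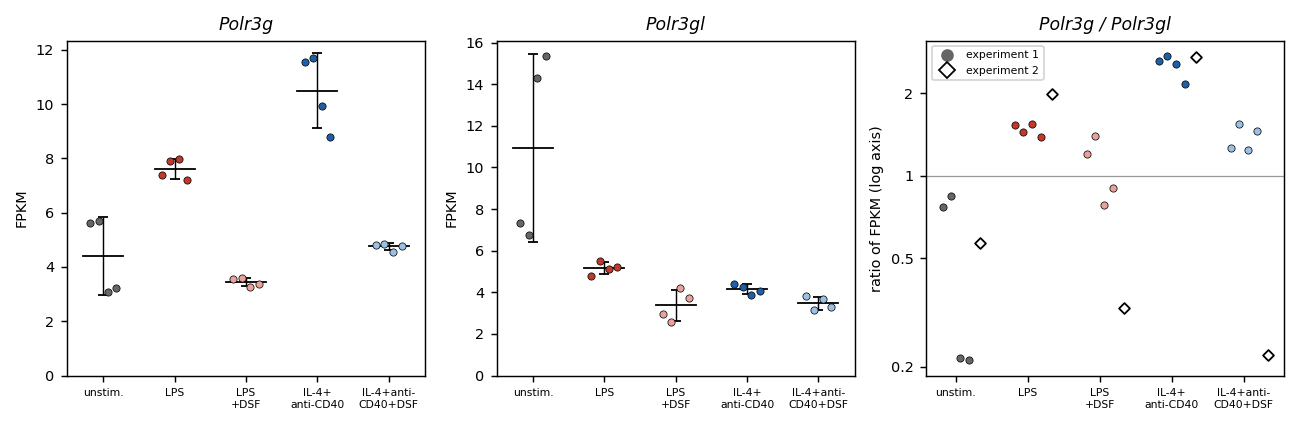
FPKM (y axes, from 0) of Polr3g and Polr3gl in each library of the first experiment with mean (long bar) and SD of 4 libraries, and their ratio on a log axis, with the single libraries of the second experiment as diamonds. The ratio is below 1 in all unstimulated libraries and above 1 in all libraries with a stimulus alone, and the unstimulated libraries fall into pairs.

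Polr3k, which takes part in termination, was called lower with LPS, and DSF lowered it under both stimuli. It was at 9.30, 8.94, 9.20 and 9.86 FPKM in unstimulated cells, 7.06, 7.60, 8.17 and 7.77 with LPS and 5.17, 4.75, 4.71 and 6.27 with LPS and DSF. The change with LPS was -0.27 ± 0.07 (adjusted p = 0.0105) and with DSF under LPS -0.53 ± 0.09 (adjusted p = 7.35e-06). Under IL-4+anti-CD40 it was at 9.70, 9.57, 8.25 and 8.18 FPKM and with DSF at 8.10, 6.30, 8.16 and 7.22, a change of -0.28 ± 0.10 (adjusted p = 0.0267) that was lost without any 1 of IL-4+anti-CD40 libraries 1 and 2 or its DSF libraries 2 and 4. Polr3f rose by 0.43 and 0.51 and decreased by 0.44 and by 0.50, and Polr3c, not called with either stimulus, decreased by 0.18 with DSF under LPS.

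The DSF effect differed between the stimuli for 6 of 28 members (4 with a less negative effect with LPS, background 7.92% of 15130 genes, and 2 with a more negative one, 6.96%). The difference, DSF effect with LPS minus that under IL-4+anti-CD40, was -0.76 ± 0.18 for Polr2i (adjusted p = 0.00762), -0.50 ± 0.13 for Polr2g (adjusted p = 0.0135) and 0.32 ± 0.08 for Polr3d (adjusted p = 0.00909), calls that held without any 1 library. For Polr1a it was 0.27 ± 0.08 (adjusted p = 0.0335), for Polr3e 0.28 ± 0.08 (adjusted p = 0.0267) and for Polr2h 0.29 ± 0.09 (adjusted p = 0.0457). The latter 3 calls were lost when single libraries were left out. That of Polr1a was lost without any 1 of LPS libraries 3 and 4, any LPS and DSF library, IL-4+anti-CD40 libraries 1 and 2 or IL-4+anti-CD40 and DSF library 3. That of Polr3e was lost without LPS or LPS and DSF libraries 3 or 4, IL-4+anti-CD40 library 2 or IL-4+anti-CD40 and DSF library 4, and that of Polr2h without any 1 of 13 of the 16 libraries and in DESeq2. With all 20 libraries in 1 fit, 2 members were called.

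The stimuli themselves differed little for these genes. LPS was higher than IL-4+anti-CD40 for 3 members (background 22.3% of 14078 genes) and lower for 3 (17.3%). Besides Polr2g, Polr3g and Polr3gl, these were Polr1c, higher with LPS by 0.24 (adjusted p = 0.0186), and Polr2l and Polr2i, lower by 0.25 (adjusted p = 0.0318) and by 0.33 (adjusted p = 0.0455). The call for Polr1c was lost without LPS library 3 or 4 or IL-4+anti-CD40 library 3, and those for Polr2l and Polr2i without any 1 of the LPS libraries or of IL-4+anti-CD40 libraries 1 and 2. The number lower was 1 without any 1 of LPS libraries 1, 3 and 4 or IL-4+anti-CD40 libraries 1 and 2, 5 without IL-4+anti-CD40 library 3 and 8 without its library 4. Scaled by total counts, 1 member was higher and 17 were lower.

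Cells with a stimulus and DSF were also compared with unstimulated cells. With LPS and DSF, 12 members were higher (background 34.3% of 14663 genes) and 7 lower (37.3%). Under IL-4+anti-CD40 and DSF, 17 were higher (33.4% of 14678 genes) and 6 lower (35.3%). Scaled by total counts, 6 were higher and 12 lower with LPS and DSF, and 8 were higher and 9 lower under IL-4+anti-CD40 and DSF. In the first experiment, all 5 subunits named for Pol I were higher in both, with Polr1b at 1.10 and 1.01. The 7 lower with LPS and DSF were Polr2b, Polr2e, Polr2g, Polr2i, Polr2j, Polr3gl and Polr3k, and the 6 under IL-4+anti-CD40 and DSF were these without Polr2e. The call for Polr2e was lost without any 1 of the LPS and DSF libraries, and that for Polr3k under IL-4+anti-CD40 and DSF without DSF library 4. In the second experiment, Polr1b was at 12.6 FPKM without stimulus, 5.37 with LPS and DSF and 6.65 under IL-4+anti-CD40 and DSF, 1 library each. In the same order, Polr1e was at 7.97, 3.55 and 3.01 FPKM and Polr1a at 10.3, 9.03 and 10.1. Polr1c was at 18.2, 20.2 and 18.3 FPKM and Polr1d at 24.1, 39.9 and 40.0.

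The second experiment had 1 library per condition and therefore no test, and its log2 ratios carry counting intervals only. DSF lowered 14 of the 28 members at least 2-fold with LPS (background 19.5% of 14275 genes) and 12 under IL-4+anti-CD40 (20.3%), and raised none by as much (20.3% and 21.9%). The members' median log2 ratio was -0.98 and -0.85, against -0.04 and -0.01 over all genes. All 22 members lowered by DSF with LPS in the first experiment were below 0 here, as were 92.0% of all genes lowered there, and so were 21 of the 22 under IL-4+anti-CD40 (94.5% of genes). Polr1b went from 4307 counts (40.2 FPKM) with LPS to 538 counts (5.37 FPKM) with DSF, a log2 ratio of -2.89 (95% counting interval -3.03 to -2.77), and Polr3g from 8.22 to 1.25 FPKM, a log2 ratio of -2.69. Under IL-4+anti-CD40 these were -2.72 and -2.89.

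Polr2a and Polr1d were the members above 0 with DSF and LPS. Polr2a was at 64.7 FPKM with LPS and 69.9 with DSF, a log2 ratio of 0.12 (0.07 to 0.16), and at 64.2 and 64.3 FPKM under IL-4+anti-CD40, a log2 ratio of 0.01 (-0.03 to 0.06). Polr1d was at 0.13 (0.04 to 0.21) with LPS and -0.23 (-0.32 to -0.14) under IL-4+anti-CD40. The DSF ratio of Polr1c was -0.82 (-0.94 to -0.69) with LPS and -0.48 (-0.63 to -0.34) under IL-4+anti-CD40. Scaled by total counts, all 28 members were below 0 with LPS, Polr2a and Polr1d included. Among members lowered by DSF in the first experiment, Polr3gl went the other way here, with a DSF ratio of 0.70 (0.33 to 1.09) under IL-4+anti-CD40, from 105 counts to 132. With LPS its ratio was -0.11 (-0.50 to 0.28). All 20 members higher with LPS in the first experiment were above 0 here (86.6% of genes), as were all 20 under IL-4+anti-CD40 (95.6%). Of the 3 lower with LPS, 2 were below 0 (89.7% of genes), Polr3k being above it at 0.21 (0.02 to 0.40), and both members lower under IL-4+anti-CD40 were below 0 (94.5%). At least 2-fold higher were 7 members with LPS (background 8.62%) and 10 under IL-4+anti-CD40 (10.7%), and 2-fold lower were none with LPS (9.88%) and 1 under IL-4+anti-CD40 (13.7%), Polr3gl.

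Ibrutinib lowered no member 2-fold with either stimulus (background 2.47% and 1.69%) and raised none (2.81% and 2.23%). The members' median log2 ratio was -0.11 with LPS and -0.21 under IL-4+anti-CD40, against 0.01 and 0.00 over all genes, and 19 and 24 of the 28 were below 0 (48.6% and 49.3% of genes). Polr1b was at -0.43 with both stimuli and Polr3g at -0.33 and -0.37. Polr2a was at 0.27 and 0.29, and Polr3gl at 0.47 and 0.57. The DSF and ibrutinib ratios share the library with the stimulus alone.

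**Figure D4:**
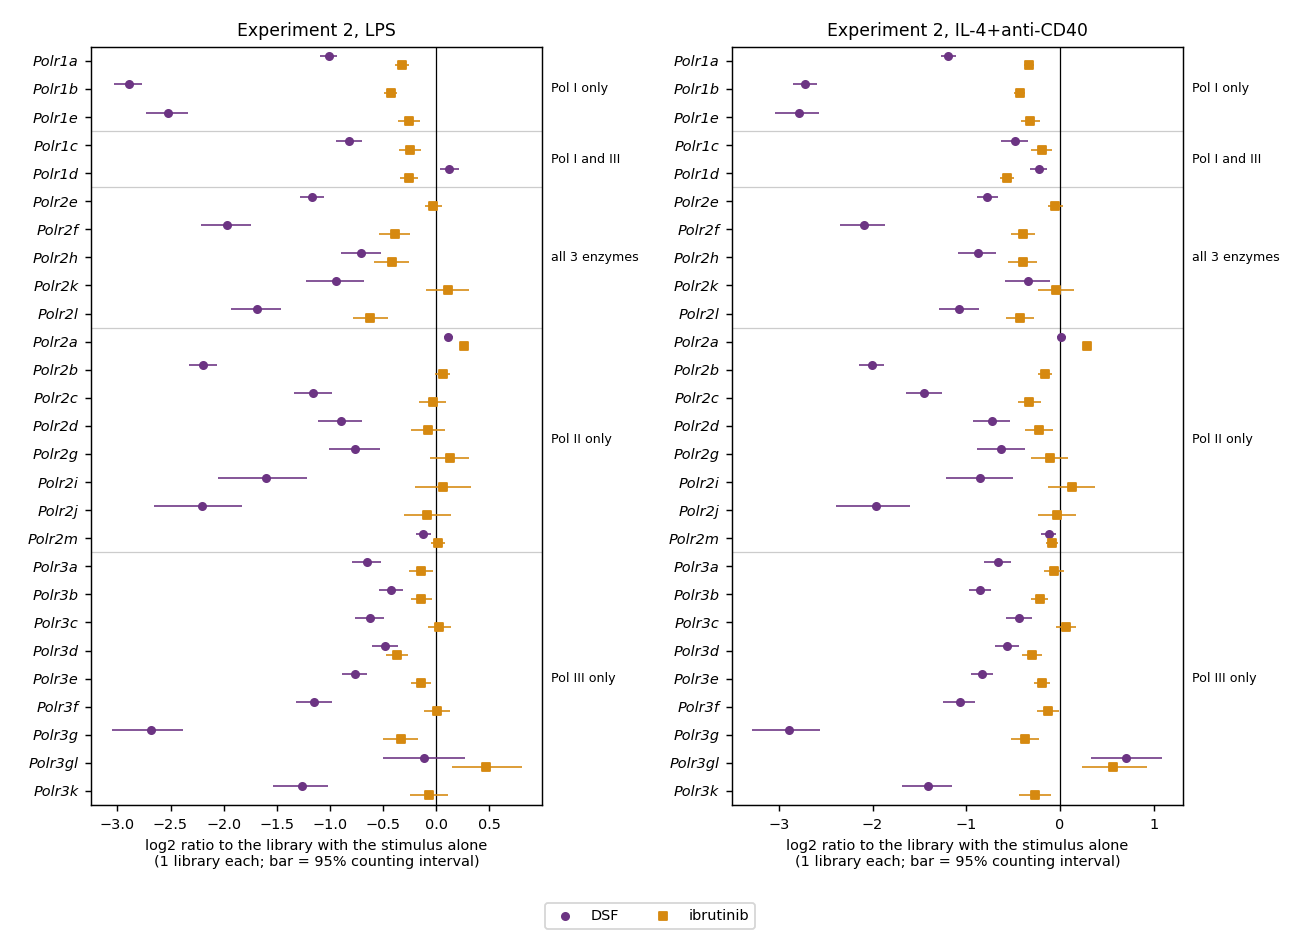
Log2 ratio (x axis) of the same 27 subunit genes to the library with the stimulus alone in the second experiment, for DSF (circles) and ibrutinib (squares), 1 library each, with 95% counting intervals. With DSF, Polr1b, Polr1e and Polr3g lie furthest left, from -2.52 to -2.89, and the ibrutinib ratios all lie between -0.62 and 0.57.

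Genes that work with the polymerases were counted from lists, against the same background shares as the members. All 4 Pol I and Pol III subunits that carry other names here (Twistnb, Cd3eap, Znrd1, Crcp) rose with each stimulus, and with DSF they split. Cd3eap, the partner of Polr1e, decreased by 1.03 with LPS (adjusted p = 7.86e-13) and by 1.17 under IL-4+anti-CD40 (adjusted p = 3.7e-06), as Polr1e did, whereas the Pol I subunit Znrd1 rose by 0.53 and 0.68. The median DSF change of the 4 was 0.06 with LPS and -0.11 under IL-4+anti-CD40. Of 8 Pol I initiation and termination factors, 4 were lower and 3 higher with DSF under LPS and 5 lower and 1 higher under IL-4+anti-CD40, with medians of -0.16 and -0.17, and 5 rose and 1 fell with each stimulus. Ubtf, which binds ribosomal gene promoters, changed by -0.57 and -0.48, and Baz2a, a subunit of the silencing complex of ribosomal genes, by 0.58 and 0.39.

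Of 18 general transcription factors of Pol II, 14 rose and 1 fell with LPS and 15 rose and none fell under IL-4+anti-CD40, while 13 were lower and 3 higher with DSF under each, with medians of -0.28 and -0.34. The TFIIH subunits Gtf2h1 and Gtf2h4 changed in opposite directions with DSF, by 1.22 and 0.98 and by -1.13 and -1.04. Of 30 pausing and elongation factors, 14 rose and 8 fell with LPS and 16 rose and 4 fell under IL-4+anti-CD40. With DSF, 15 were higher (background 35.1%) and 10 lower (36%) under LPS. Under IL-4+anti-CD40 and DSF, 9 were higher (30.1%) and 10 lower (31.6%). The medians were 0.06 and -0.06. Aff1 and Ell2, members of the super elongation complex, rose by 1.80 and 1.58 and by 1.41 and 1.56.

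Of 16 Pol III factors, 11 were lower (background 36%) and 2 higher (35.1%) with DSF under LPS. Under IL-4+anti-CD40 and DSF, 9 were lower (31.6%) and none higher (30.1%). The medians were -0.27 and -0.22. Gtf3a, the 5S gene factor TFIIIA, decreased by 1.03 and by 1.00, and Snapc4, of the complex that binds small nuclear RNA genes, by 0.75 and by 0.93. Of 11 polymerase assembly factors, 9 were lower and none higher with DSF under each stimulus, with medians of -0.92 and -0.75, and Uri1 decreased by 1.32 and by 1.28 and Rpap1 by 1.24 and by 1.08. Of 9 genes of mitochondrial transcription, 7 were lower and 1 higher under LPS and 5 lower and none higher under IL-4+anti-CD40, with medians of -0.67 and -0.37. Tfb1m decreased by 1.00 and by 1.01 and Tefm by 0.88 and by 0.94. With LPS against unstimulated cells (background 29.6% higher and 33.3% lower), 7 Pol III factors rose and 5 fell, 6 assembly factors rose and 2 fell, and 3 mitochondrial genes rose and 2 fell. Under IL-4+anti-CD40 against unstimulated cells (30.4% and 32.1%), these were 8 and 4, 5 and 1, and 4 and 2.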

How the data were processed

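B cells were negatively selected from mouse spleen, and poly(A) RNA was sequenced on an Illumina NovaSeq instrument. The authors trimmed reads with Fastp, aligned them to mm10 with HISAT2 2.0.5 and counted them per gene with featureCounts 1.5.0-p3 (versions per the submitters' processing notes). The deposited tables hold raw counts per gene, and the FPKM values the authors computed from them by gene length and depth. The annotation release and the strand setting are not given in the sources used here.

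From the counts, each comparison of the first experiment was fitted in the 8 libraries concerned (16 for the difference of DSF effects) with edgeR 4.0.16 in R 4.3.3: filterByExpr, TMM factors and the quasi-likelihood test, with Benjamini-Hochberg adjustment over all genes tested and a threshold of 0.05. The SE is the log2 fold change divided by the square root of F. FPKM served for levels and for overlap between groups, with no test. The second experiment, with 1 library per condition, gave log2 ratios (TMM, prior count 2, genes averaging 10 counts or more) with exact binomial 95% intervals that cover counting error only. DESeq2 1.42.0 and the other alternatives are in the closing section, and those that split the libraries into 1 and 2 against 3 and 4 were added after seeing the data. The fits were tested on simulated data.

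The members and gene lists were chosen with earlier results of these data known. Named with values in every library were the largest 2 subunits of each enzyme, the member of each class with the largest mean change with the stimuli and with DSF, Polr3g and Polr3gl, members whose DSF effect differed between stimuli and members called against the majority of a comparison. Of each list, the 2 genes with the largest mean DSF change among those called under both stimuli were named. Same-numbered libraries did not deviate together in every pair (correlations from -0.06 to 0.17), so the numbers were not taken to pair the samples. Replicate libraries differed by more than sampling noise (chi-square per gene 2.86 to 90.7). Gene positions were compared with GENCODE vM21, and promoters were taken from RefSeq. The values of 1 member are not reported here by gene, and it enters the counts and medians over the members.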

Additional observations from a re-analysis of the deposited data

Results flagged for a closer look

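In FPKM, 3 of 140 groups of 4 libraries held 1 library far from the others, where chance gives about 1 in 20. Polr2k was at 20.7 FPKM in unstimulated library 3 against 25.7 to 25.9 in the others, and Polr2i was at 7.85 FPKM in the same library against 8.87 to 9.08. Polr2d was at 36.3 FPKM in IL-4+anti-CD40 and DSF library 3 against 30.1 to 31.1.

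The DSF effect differed between the stimuli for 6 members by the test of the difference itself. The difference, LPS minus IL-4+anti-CD40 on the log2 scale, was 0.27 for Polr1a, 0.28 for Polr3e, 0.32 for Polr3d, 0.29 for Polr2h, -0.50 for Polr2g and -0.76 for Polr2i. In the second experiment, without a test, the DSF ratio of Polr2i was -1.60 with LPS and -0.85 under IL-4+anti-CD40, and that of Polr2g was -0.76 and -0.63. In the same order, it was -0.48 and -0.57 for Polr3d, -1.01 and -1.19 for Polr1a, -0.77 and -0.83 for Polr3e and -0.70 and -0.88 for Polr2h.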

How the results depend on the processing

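Of the 21 counts of members, scaling by total counts moved the most. It shifted the median of all genes to -0.27 (LPS), -0.19 (IL-4+anti-CD40), -0.21 (DSF with LPS), -0.16 (DSF under IL-4+anti-CD40), -0.14 (LPS against IL-4+anti-CD40), -0.43 (LPS and DSF against unstimulated) and -0.31 (IL-4+anti-CD40 and DSF against unstimulated). By its construction it moves all genes of a comparison by about the same amount, which was downward in these. Under it, members lower with LPS were 6 in place of 3, members higher with DSF were 1 in place of 2 under LPS and 0 in place of 1 under IL-4+anti-CD40, LPS against IL-4+anti-CD40 gave 1 higher and 17 lower in place of 3 and 3, LPS and DSF against unstimulated gave 6 higher and 12 lower in place of 12 and 7, and IL-4+anti-CD40 and DSF against unstimulated gave 8 higher in place of 17. It left 3 members with a differing DSF effect in place of 6, and 1 member 2-fold lower with LPS in the second experiment in place of 0. Its sign changes were, with LPS, Polr2m -0.047, Polr2b -0.0084 and Polr3c -0.18, with DSF under LPS Polr1d -0.017, with LPS and DSF against unstimulated Polr2a -0.094, Polr2m -0.31, Polr3b -0.31, Polr2c -0.18 and Polr2d -0.15, and under IL-4+anti-CD40 and DSF against unstimulated Polr2a -0.0060, Polr2m -0.028, Polr3a -0.0037, Polr3c -0.28 and Polr3f -0.28. For the other settings the cause was not tested. Members higher with DSF under LPS were 1 in DESeq2, 1 with all 20 libraries in 1 fit and 1 with libraries 3 and 4 only, and under IL-4+anti-CD40 0 with libraries 3 and 4 only. Members lower with DSF under IL-4+anti-CD40 were 12 in place of 22 with libraries 3 and 4 only, a fit with fewer samples, as was that with LPS. IL-4+anti-CD40 libraries 1 and 2 also stood apart from libraries 3 and 4. Chi-square per gene was 15.6 to 27.2 across these pairs and 3.49 and 6.41 within them. The part of this split in the count was not tested. Members lower with LPS were 5 against unstimulated libraries 1 and 2. LPS against IL-4+anti-CD40 gave 5 lower in DESeq2, 6 with DESeq2's size factors in edgeR and 5 with at least 10 counts in every library, and all 20 libraries in 1 fit gave 2 differing DSF effects. Against unstimulated libraries 3 and 4, Polr2e was at 0.27 with LPS, 0.36 under IL-4+anti-CD40 and 0.15 under IL-4+anti-CD40 and DSF, and against libraries 1 and 2 Polr3g was at -0.26 under IL-4+anti-CD40 and DSF.

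Leaving out 1 library gave 19 to 20 higher and 3 lower with LPS, 20 and 2 under IL-4+anti-CD40, 1 to 2 higher and 21 to 24 lower for DSF with LPS, 0 to 1 and 18 to 21 for DSF under IL-4+anti-CD40, 2 to 3 and 1 to 8 for LPS against IL-4+anti-CD40, 10 to 13 and 6 to 8 for LPS and DSF, 16 to 17 and 5 to 7 for IL-4+anti-CD40 and DSF, and 3 to 7 differing DSF effects. With the replicate number as a block, the counts were 19 and 3, 20 and 2, 2 and 22, 1 and 21, 3 and 3, 12 and 7, 15 and 6, and 5 in the same order, and 0 to 2 of 4 libraries correlated best with their own number. Depth limits Polr2j, Polr2i and Polr3g most in the second experiment, where DSF libraries held 61 to 95 counts for them.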
